A study of Mus musculus with 8 samples.

Results

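The 10 genes studied here belong to the mechanistic target of rapamycin complex 1 (mTORC1) and to the tuberous sclerosis complex (TSC) that restrains it, and were read on expression arrays of mouse oocytes. They were Rptor, Mtor, Mlst8, Akt1s1, Deptor, Tsc1, Tsc2, Rheb, Rps6kb1 and Eif4ebp1, and they were taken as probe sets whose annotation gave 1 of these symbols alone. They made 10 of the 29455 genes with such a probe set, and 11 of the 34472 probe sets on the array, because Deptor had 2. The brighter Deptor probe set was used. The list was chosen by function and in part by the BPS minus control difference in signal, since Rptor was higher after treatment, so the differences between the treatment groups are given for these genes as a description, without a test.

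The study exposed mice to bisphenol S (BPS), a replacement for bisphenol A in plastics. The BPS group had 4 arrays from female ICR mice, an outbred strain, given 0.1 ng BPS per g body weight per day for 7 days by oral gavage, in 50 μl of 50% glycerol that held 0.1% DMSO. The control group had 4 arrays from female ICR mice whose treatment field reads none, and no vehicle is named for them. Mice of both groups were 8 weeks old and ate a diet without phyto-oestrogens, and only RNA whose integrity number exceeded 8 was taken. The labels call the RNA oocyte RNA, while the protocols describe collection of ovaries. Whether each array came from 1 animal is not stated, so the errors and p-values measure the spread between these arrays, which may be in part technical. Values are log2 signals of the RMA method, in which 1 unit is a doubling. The array annotation names the mouse genome build mm10 (GRCm38), and coordinates are from RefSeq on GRCm38.p6.

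mTORC1 is a protein kinase complex that couples amino acids, energy and growth factors to protein synthesis and cell growth. Its catalytic subunit MTOR is joined by raptor, which recruits substrates, and by MLST8, while PRAS40 and DEPTOR restrain it. The TSC1 and TSC2 proteins turn off the small GTPase RHEB, which otherwise activates the kinase at the lysosome, and the kinase then phosphorylates S6 kinase 1 and the translation repressor 4E-BP1. In the mouse ovary this pathway is known for its part in the activation of dormant follicles, and loss of Tsc1 or Tsc2 in mouse oocytes activates them early.

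The promoters of the 3 subunit genes of the complex are shown because Rptor differed most between the groups while the groups overlapped for its partners Mtor and Mlst8. Each is the 250 bases before the annotated transcript start, 5′ to 3′ on the gene's strand, from RefSeq on GRCm38.p6. The Mlst8 stretch overlaps the end of the gene span given below, so it does not lie wholly outside that span. Capitals mark matches, on either strand, to a GC box (GGGCGG) or a CCAAT box (CCAAT).
Rptor promoter, chr11:119602655-119602904, plus strand: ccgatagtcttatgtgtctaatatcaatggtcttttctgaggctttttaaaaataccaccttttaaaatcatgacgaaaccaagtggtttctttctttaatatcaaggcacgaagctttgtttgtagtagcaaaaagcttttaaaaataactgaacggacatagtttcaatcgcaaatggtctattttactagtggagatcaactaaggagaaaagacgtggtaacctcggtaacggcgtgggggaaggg
Mtor promoter, chr4:148448332-148448581, plus strand: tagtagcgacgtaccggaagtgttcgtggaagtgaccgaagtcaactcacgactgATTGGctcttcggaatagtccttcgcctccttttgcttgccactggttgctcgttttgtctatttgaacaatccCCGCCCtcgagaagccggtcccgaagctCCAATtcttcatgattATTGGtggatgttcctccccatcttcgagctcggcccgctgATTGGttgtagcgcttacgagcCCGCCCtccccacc
Mlst8 promoter, chr17:24479079-24479328, minus strand: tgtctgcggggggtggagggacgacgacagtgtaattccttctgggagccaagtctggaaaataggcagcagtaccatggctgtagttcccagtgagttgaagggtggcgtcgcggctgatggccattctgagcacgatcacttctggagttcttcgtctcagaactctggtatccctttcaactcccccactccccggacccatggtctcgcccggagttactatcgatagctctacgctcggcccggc
The Mtor promoter held 4 CCAAT boxes and 2 GC boxes, and the other two sequences held neither. Over all 32851 promoters of the same length, 33.8% held a CCAAT box and 32.7% a GC box. G and C made up 37.6% of the Rptor promoter, against a median of 52.4% over all promoters, which put it at percentile 7.92. They made up 54.4% of the Mtor promoter and 57.6% of the Mlst8 promoter. An E-box (CACGTG, in 6.02% of all promoters), a cAMP response element (TGACGTCA, 1.55%), an NRF1 core (GCGCATGC, 2.26%) and an oestrogen response element (GGTCA, any 3 bases, TGACC; 0.0639%) were also searched on both strands, and the 3 promoters matched none of them. Promoters were matched for 8 of the 10 genes, all but Deptor and Eif4ebp1. Among the other 5, a GC box occurred in those of Akt1s1 and Rheb, an E-box in that of Rheb and an NRF1 core in that of Rps6kb1.

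The arrays carried oocyte RNA by their markers. Of 18 oocyte markers 17 lay above background, set at 4.54, which 95% of the mean signals stayed under among 1570 olfactory receptor, vomeronasal receptor and Y-linked probe sets. Zp3, which encodes a zona pellucida protein, had a mean of 10.98 in BPS arrays and 10.95 in control arrays. The oocyte growth factor gene Gdf9 had means of 9.82 in BPS arrays and 9.86 in control arrays, and the germ cell helicase gene Ddx4 had 6.44 in BPS arrays and 6.28 in control arrays. Of 12 granulosa cell markers only Inha and Nr5a2 lay above background, and the defining markers Amh, Fshr and Cyp19a1 lay below it. The mean level of the granulosa list ran from 4.46 to 4.71 in BPS arrays and from 4.36 to 4.49 in control arrays. These ranges overlapped. The median BPS minus control difference was 0.0425 over the granulosa markers and 0.035 over the oocyte markers, against 0.12 over all probe sets above background. The part of the granulosa difference in the results below was not tested. No measured theca or stroma marker and 1 of 8 blood and immune markers, Pecam1, lay above background. In such bulk RNA, fewer cells of a type and less RNA per cell cannot be told apart. Headers of the deposited workbook name the arrays in 2 series, by number or by letter, and each series holds 2 BPS and 2 control arrays. Matched by their values, arrays 1 and 2 of each group were number-named and arrays 3 and 4 letter-named.

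Of the 10 genes, 9 had a mean signal above background, and 8 were above it in all 8 arrays. Akt1s1 lay below it, at a mean of 4.45 over the 8 arrays, and Eif4ebp1 lay close above it. A stricter level of 5.13, the 99th percentile of those background probe sets, was passed by 6 of the 10.

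**Figure D1:**
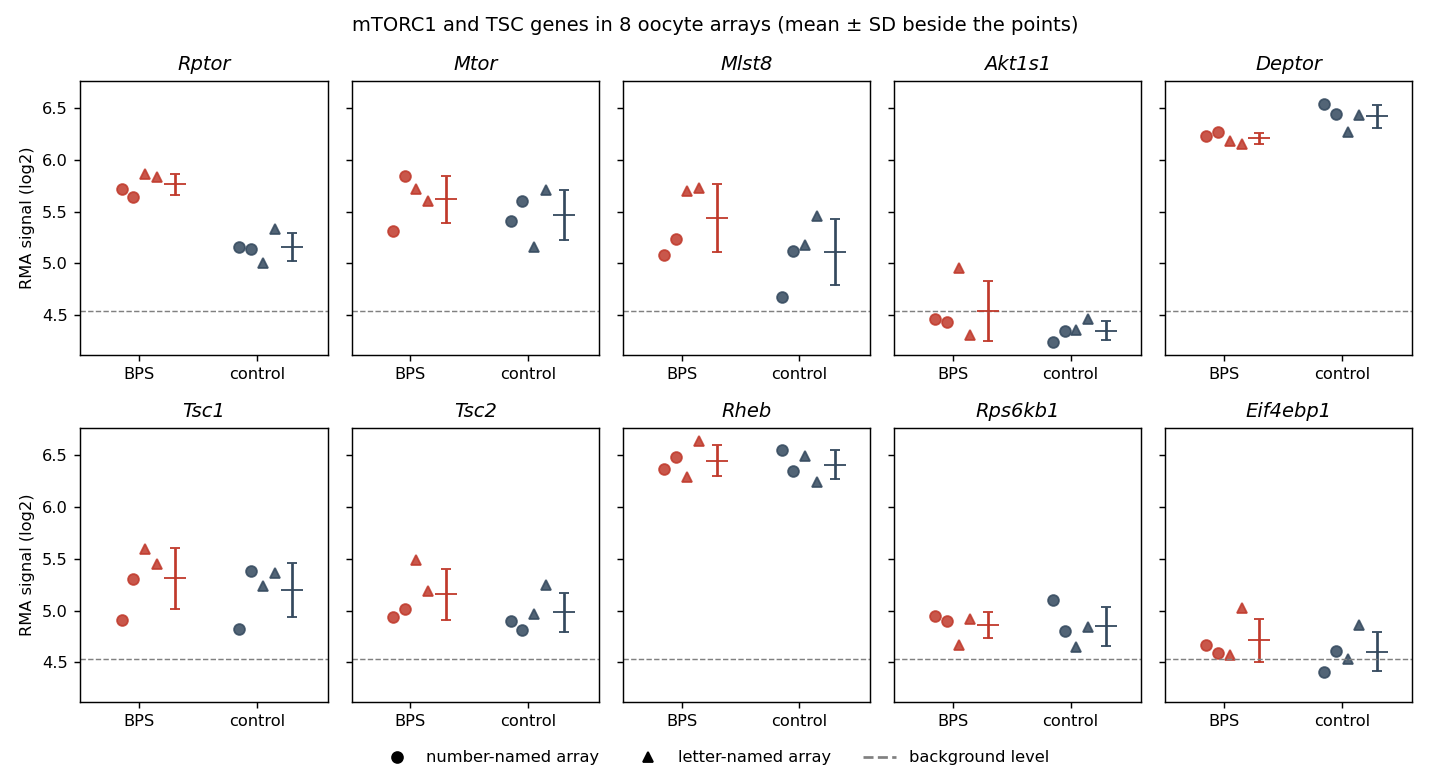
Log2 signal of the 10 mTORC1 and TSC genes in each array, with BPS arrays to the left of control arrays, group means as bars and the background level of 4.54 marked. The 4 BPS arrays of Rptor lie between 5.64 and 5.86, all above its control arrays, which lie between 5.00 and 5.33.

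Rptor encodes raptor, the subunit that docks substrates such as 4E-BP1 and S6 kinase 1 onto the kinase, and it lies at chr11:119602905-119899591 (probe set 17259177). Its signal was 5.72, 5.64, 5.86 and 5.83 in BPS arrays 1 to 4, and 5.16, 5.14, 5.00 and 5.33 in control arrays 1 to 4. Every BPS array was higher than every control array, and the lowest BPS array stood apart from the highest control array by more than the SD of either group. The means were 5.76 ± 0.10 in BPS arrays and 5.16 ± 0.14 in control arrays (SD, n = 4 each). The difference of 0.61 ± 0.08 (SE) is a signal 1.52-fold as high in BPS arrays. It was 0.68 within the letter-named arrays and 0.53 within the number-named ones, and 0.55 to 0.66 when any 1 array was left out. After quantile normalization of the arrays it was 0.45 ± 0.09. The authors' deposited table gives averages of 5.77 for treated and 5.15 for control arrays, and a fold of -1.53 written as control over treated.

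Mtor, at chr4:148448582-148557685, encodes the kinase itself, which serves both mTORC1 and the second complex, mTORC2. Its signal was 5.31, 5.84, 5.72 and 5.60 in BPS arrays 1 to 4, and 5.41, 5.60, 5.16 and 5.71 in control arrays 1 to 4. The groups overlapped, with the lowest value of all in control array 3 and the next in BPS array 1. The means were 5.62 ± 0.23 in BPS arrays and 5.47 ± 0.24 in control arrays (SD, n = 4 each), and the difference was 0.15 ± 0.15 (SE). After quantile normalization it was -0.03, so its sign depended on the scaling.

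Mlst8, at chr17:24473550-24479114 (probe set 17341872), encodes the small subunit bound to the kinase domain in both complexes. Its signal was 5.08, 5.24, 5.70 and 5.73 in BPS arrays 1 to 4, and 4.68, 5.12, 5.18 and 5.46 in control arrays 1 to 4. In both groups the letter-named arrays 3 and 4 were the high ones, and the groups overlapped. The means were 5.44 ± 0.33 in BPS arrays and 5.11 ± 0.32 in control arrays (SD, n = 4 each). The difference was 0.33 ± 0.20 (SE) over all arrays, 0.40 within the letter-named arrays and 0.26 within the number-named ones. Between arrays of the same replicate number it was 0.40, 0.12, 0.52 and 0.27, higher in the BPS array each time, and with that number as a block its standard error was 0.07. It was 0.18 without control array 1, the lowest value with any 1 array left out, and 0.17 after quantile normalization.

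Of the inhibitory subunits, Akt1s1 encodes PRAS40, a substrate of AKT that binds raptor, and lies at chr7:44849224-44855421. Its signal was 4.46, 4.43, 4.96 and 4.31 in BPS arrays 1 to 4, and 4.24, 4.35, 4.36 and 4.46 in control arrays 1 to 4. Only BPS array 3 stood clearly above background. The difference of 0.19 ± 0.13 (SE) was 0.05 without that array, and a level so near background supports no reading.

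Deptor, at chr15:55112317-55259273 (probe set 17311533), encodes an inhibitor that binds the kinase, and it was the only one of the 10 with a lower mean in BPS arrays. Its signal was 6.23, 6.27, 6.18 and 6.15 in BPS arrays 1 to 4, and 6.54, 6.44, 6.27 and 6.43 in control arrays 1 to 4. Of the BPS arrays 3 lay below every control array, and BPS array 2 tied with control array 3, the lowest control. The means were 6.21 ± 0.05 in BPS arrays and 6.42 ± 0.11 in control arrays (SD, n = 4 each), a difference of -0.21 ± 0.06 (SE). The difference was -0.185 within the letter-named arrays and -0.24 within the number-named ones, and -0.38 ± 0.13 after quantile normalization. The dimmer Deptor probe set, 17547877, did not show it. It read 5.00, 4.84, 5.24 and 4.81 in BPS arrays and 5.15, 4.87, 4.95 and 5.02 in control arrays, a difference of -0.025. The mean of both probe sets differed by -0.12.

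Tsc1, at chr2:28640993-28691172, encodes hamartin, the scaffold that stabilises the TSC2 protein. Its signal was 4.91, 5.30, 5.59 and 5.45 in BPS arrays 1 to 4, and 4.82, 5.38, 5.24 and 5.36 in control arrays 1 to 4. Array 1 was low in both groups, and the groups overlapped. The difference was 0.11 ± 0.17 (SE), and -0.01 without control array 1.

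Tsc2 encodes tuberin, the subunit that makes RHEB hydrolyse GTP, and lies at chr17:24595816-24632676, 117 kb from Mlst8. Its signal was 4.94, 5.01, 5.49 and 5.19 in BPS arrays 1 to 4, and 4.90, 4.81, 4.97 and 5.25 in control arrays 1 to 4. The highest value was in BPS array 3 and the groups overlapped. The difference was 0.175 ± 0.14 (SE), and 0.03 after quantile normalization.

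Rheb, at chr5:24802823-24842361, encodes the GTPase that switches mTORC1 on. Its signal was 6.37, 6.48, 6.29 and 6.64 in BPS arrays 1 to 4, and 6.55, 6.35, 6.49 and 6.24 in control arrays 1 to 4. The 2 groups interleaved over their whole range, and the difference was 0.04 ± 0.10 (SE).

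The 2 substrate genes differed between the groups by less than their standard error in the fit without a block. Rps6kb1, at chr11:86498869-86544885, encodes S6 kinase 1, and its signal was 4.95, 4.90, 4.67 and 4.92 in BPS arrays 1 to 4, and 5.10, 4.80, 4.65 and 4.84 in control arrays 1 to 4. The extremes were both control arrays, and the difference was 0.01 ± 0.10 (SE). Eif4ebp1, at chr8:27260327-27275656, encodes 4E-BP1, which holds the cap-binding factor eIF4E until it is phosphorylated. Its signal was 4.67, 4.59, 4.57 and 5.02 in BPS arrays 1 to 4, and 4.41, 4.61, 4.53 and 4.86 in control arrays 1 to 4. Array 4 was the high one in both groups, several values lay near background, and the difference was 0.11 ± 0.13 (SE), with a standard error of 0.06 under the replicate block.

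**Figure D2:**
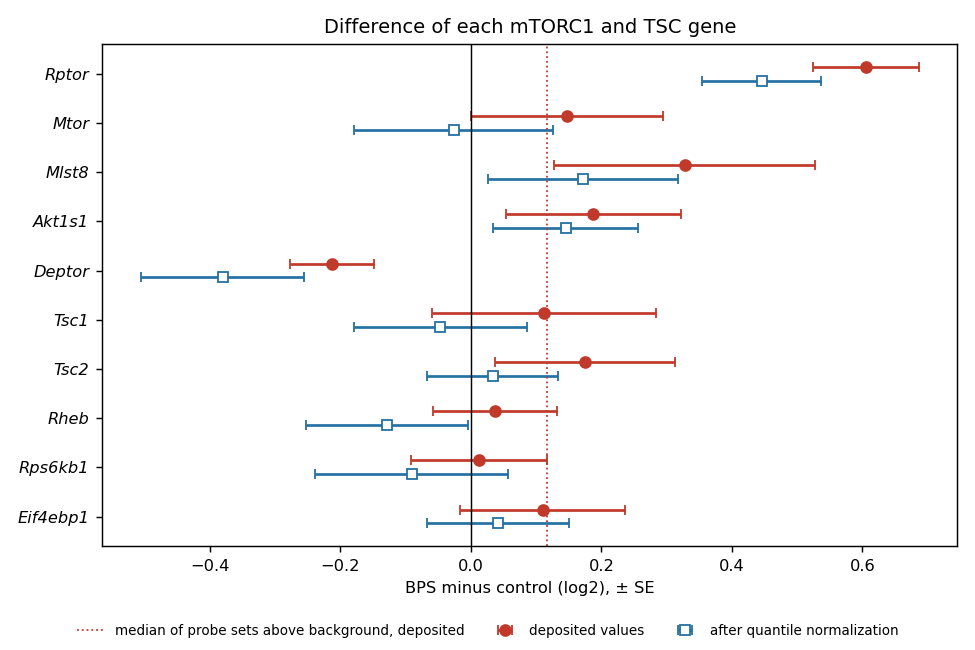
BPS minus control difference (log2) of each of the 10 genes with its standard error, on the deposited values and after quantile normalization; the dotted line is the median of 0.12 over probe sets above background. Rptor lies at 0.61 and 0.45, Deptor at -0.21 and -0.38 and Mlst8 at 0.33 and 0.17, and the other 7 lie nearer to 0 than Deptor on either scale.

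The signal of 9 of the 10 genes averaged higher in BPS arrays, with a median difference of 0.13. Over the probe sets above background the median difference was 0.12, and 71.0% of them, and 60.0% of all probe sets, were higher in BPS arrays. After quantile normalization, which brought the median of those probe sets to about 0, 5 of the 10 were higher and 5 lower, with a median of 0.00. Groups without overlap occurred for 1 of the 10 genes, Rptor, against 5.8% of all probe sets and 8.38% of those above background. This contrast helped to choose the genes, so nothing is read from the count. In the fit without a block, 4 of the 10 differences were within 1 standard error of 0 and 8 within 2. With the replicate number as a block these counts were 2 and 7. The SD within groups, pooled over both, ran from 0.09 for Deptor to 0.33 for Mlst8.

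The difference between the array series was not used to choose the genes. It was tested with limma for all probe sets, with the group as a term and Benjamini-Hochberg adjustment over all of them. Mlst8 was the only one of the 10 past the threshold of 0.05. It had a mean of 5.52 in letter-named arrays, with values from 5.18 to 5.73, and of 5.03 in number-named arrays, with values from 4.68 to 5.24. The ranges overlapped, as they did for all 10 genes (8.48% of all probe sets had no overlap), and the difference was 0.49 ± 0.11 (SE, adjusted p = 0.0475 by limma), a signal 1.40-fold as high in letter-named arrays. The share of all probe sets past the same threshold was 5.51%, and 4.56% passed as higher in letter-named arrays, so 1 of 10 is close to the background. When only the 10138 probe sets above background were fitted, 1718 passed, a larger share. The call was lost after quantile normalization (difference 0.32, adjusted p = 0.146 by limma, with 2.84% of all probe sets called), after median centring (adjusted p = 0.0688) and without the group term (adjusted p = 0.231). It was also lost when any 1 array was left out, except for control arrays 2 and 3 (adjusted p = 0.0177 and 0.0433). Over probe sets above background, the series differed by a median of 0.14.

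The other 9 genes did not pass this test. Tsc2 differed by 0.31 ± 0.09 (SE, adjusted p = 0.0931 by limma) and Tsc1 by 0.31 ± 0.14 (adjusted p = 0.257). Rps6kb1 had a difference of -0.17 (adjusted p = 0.324) and Deptor of -0.11 (adjusted p = 0.262). Rptor differed by 0.09 ± 0.08 between the series (adjusted p = 0.539), and this value was -0.13 after quantile normalization.

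**Figure D3:**
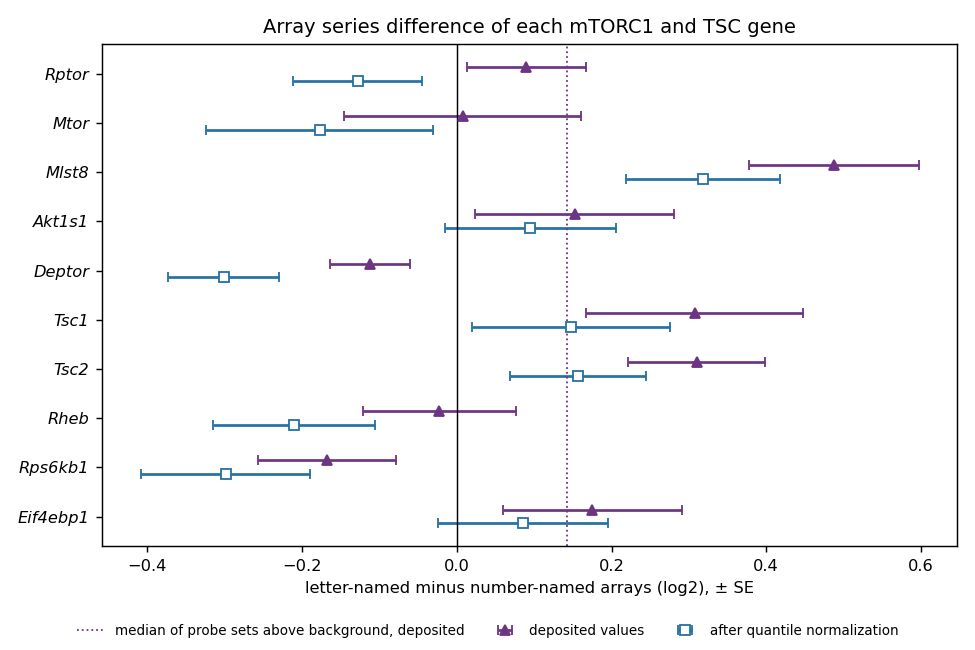
Letter-named minus number-named difference (log2) of each of the 10 genes with its standard error, from a fit with the treatment group as a term, on the deposited values and after quantile normalization; the dotted line is the median of 0.14 over probe sets above background. Mlst8 lies highest, at 0.49 on the deposited values and 0.32 after quantile normalization.

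How the genes varied together within groups was described by Pearson's r over the 8 arrays after each group's mean was taken out. Of the 45 pairs 27 were positive, and the median r was 0.22, against 0.17 over all pairs of probe sets above background. Mlst8 and Tsc1 were the closest pair, at 0.89, and had 0.88 with the series means within each group also taken out. Mlst8 and Tsc2, neighbours on chromosome 17, had 0.77, and 0.18 with the series means taken out. Deptor and Rps6kb1 had 0.77, and 0.60 with the series means taken out. Each series holds 2 arrays per group, which then mirror each other, so these second values rest on fewer free values than 8 arrays. The most opposed pairs were Akt1s1 with Rheb at -0.76 and Tsc1 with Rps6kb1 at -0.73. Akt1s1 lay below background, so no reading is made of its r values. These values are descriptions of 8 arrays that share their scaling and their series.

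**Figure D4:**
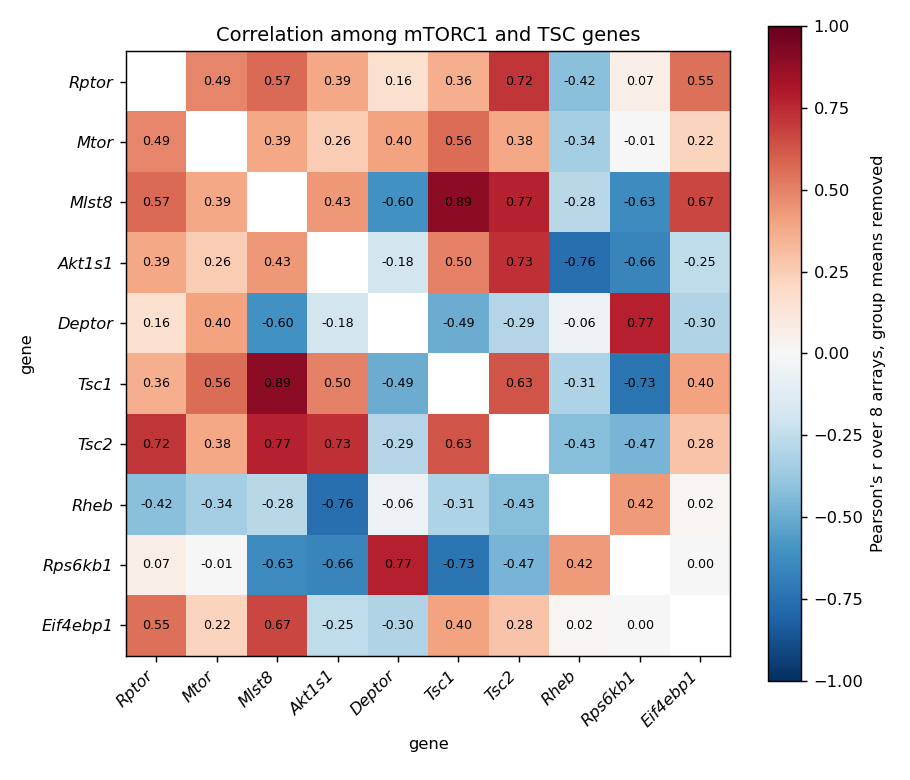
Pearson's r between each pair of the 10 genes over 8 arrays, with the mean of each group taken out. Red cells are positive and blue cells negative, and the strongest is Mlst8 with Tsc1 at 0.89.

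Genes whose signal followed that of Rptor over the 8 arrays were ranked by Pearson's r among 7572 single-symbol probe sets above background. The closest were Xrn2 (r = 0.99), G3bp1 (0.98), Exoc1 (0.98), Slc18a2 (0.98) and Tcte2 (0.98), and their BPS minus control differences were 0.48, 0.53, 0.65, 0.55 and 0.29. These r values include the difference between the groups. With the group means taken out, the closest were Bmp5 (0.99), Med26 (0.98), Dnajc21 (0.96), G3bp1 (0.95) and Fanca (0.95), so only G3bp1 was in both sets of 5. Among 7572 probe sets ranked over 8 arrays, some values this high can arise by chance, and none was tested. No other mTORC1 or TSC gene was among the closest 5 by either measure. As deposited, Mlst8 was the nearest, with r = 0.64 at rank 1794, and Deptor, with -0.74, held rank 7511. With the group means taken out, Tsc2 was the nearest, with r = 0.72 at rank 429, and Deptor had 0.16 at rank 4566.

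The wider pathway was read from 7 lists with 84 genes, of which 83 were measured and 63 lay above background. Named below are the 2 genes per list with the smallest unadjusted p for BPS against control, and others named in any case. The differences of the genes picked by p were selected by this contrast and do not stand for their lists. None of the 83 passed an adjusted p of 0.05 in limma for BPS against control, where 0.0087% of all probe sets did. At an unadjusted p under 0.05 there were 18 of 83, against 11.1% of all probe sets and 20.2% of those above background. Of the 83, 58 differences were positive, 22 were negative and 3 were 0, with a median of 0.06, which was -0.01 after quantile normalization. Positive differences made up 60.0% of all probe sets and 71.0% of those above background. The counts of positive differences in the lists below share that shift, and nothing is read from them. Groups did not overlap for 11 of the 83 genes (13.3%) as higher in BPS arrays, against 4.13% of all probe sets and 7.19% of those above background. Of these 11 genes 8 were among the 63 above background. That level was applied to the mean of all 8 arrays. Of those genes, Prr5l and Wdr24 had control means below it, 4.495 and 4.505, and passed through their BPS arrays. Nothing is therefore read from this count. Groups did not overlap for 2 of the 83 (2.41%) as lower in BPS arrays, against 1.68% of all probe sets.

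In a fit with the replicate number as a block, 2 of the 83 rose in BPS arrays, where 1.99% of all probe sets passed and 1.59% passed as higher. They were Rps6kb2 (adjusted p = 0.0356 by limma), which encodes S6 kinase 2, and Bmt2 (adjusted p = 0.0432), an inhibitor of mTORC1 also called SAMTOR. With the array series as a block 5 rose, where 3.47% of all probe sets passed and 2.78% passed as higher, namely Bmt2, Prr5l, Mios, Castor1 and Larp1. After quantile normalization with that block Bmt2 alone passed (adjusted p = 0.0171 by limma), against 1.77% of all probe sets, and 1.0% as higher. The control means of Bmt2, Castor1 and Prr5l were 4.32, 4.33 and 4.495, below the background of 4.54, which limits these calls. Bmt2, Mios and Larp1 were named after their values were seen. The shares beside these counts are over all probe sets, of which 29.4% lay above background, against 63 of the 83 genes. Shares over probe sets above background were not computed for the block fits, so nothing is read from these counts.

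The S6 kinase 2 gene Rps6kb2 had the largest difference among the named translation genes. Its signal was 5.43, 6.08, 5.90 and 6.04 in BPS arrays 1 to 4, and 4.87, 5.38, 5.25 and 5.32 in control arrays 1 to 4. All BPS arrays were above all control arrays, and array 1 was the low one in both groups. The difference was 0.66 ± 0.17 (SE, adjusted p = 0.355 by limma without a block), against 0.01 for its paralogue Rps6kb1. The difference between these 2 differences was not tested. Rps6, the ribosomal protein that both kinases phosphorylate, differed by -0.02 ± 0.09, Eif4b, an initiation factor, by -0.14 ± 0.05, and Eif4ebp2, below background, by -0.01. In the translation list 5 of 13 differences were positive and 8 negative, with a median of -0.02. Rhebl1, a relative of Rheb, lay below background and differed by 0.20 ± 0.12.

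Among the 8 genes of mTORC2 and mTOR assembly, 6 differences were positive and 1 negative. Rictor encodes the subunit that takes the place of raptor in mTORC2. Its signal was 7.03, 6.98, 7.16 and 6.98 in BPS arrays 1 to 4, and 6.54, 6.91, 6.60 and 6.70 in control arrays 1 to 4. The groups did not overlap, but control array 2 came close to the BPS arrays, and the difference of 0.35 ± 0.09 (SE) did not pass (adjusted p = 0.352 by limma). Prr5l, a partner of Rictor, whose control mean of 4.495 lay below background, differed by 0.41 ± 0.11 (adjusted p = 0.368 by limma). Mapkap1, which encodes the mTORC2 subunit SIN1, differed by 0.06 ± 0.07, and by -0.12 after quantile normalization.

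Upstream of TSC, 15 of 19 differences were positive, 3 were negative and 1 was 0. Their median was 0.04, and -0.02 after quantile normalization. Tbc1d7, the third subunit of the TSC complex, was higher in each BPS array than in any control array and differed by 0.35 ± 0.11. Gsk3b, a kinase that phosphorylates TSC2, differed by 0.31 ± 0.07 (adjusted p = 0.298 by limma), Prkaa2, a catalytic subunit of the energy sensor AMPK, by 0.51 ± 0.14, and Akt1, which phosphorylates TSC2 and PRAS40, by 0.29 ± 0.09. None of these 4 passed the threshold. For Gsk3b and Akt1 the groups did not overlap either, while for Prkaa2 they did. After quantile normalization the differences were 0.19 for Tbc1d7, 0.14 ± 0.09 for Gsk3b, 0.35 for Prkaa2 and 0.16 for Akt1.

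The lists of amino acid input held differences in both directions. For the Rag GTPases and Ragulator, which carry mTORC1 to the lysosome, 10 of 13 differences were positive, with a median of 0.06, and Fnip1, a partner of folliculin, differed by 0.245 ± 0.12 and Fnip2, below background, by 0.07. For GATOR and KICSTOR, which control the Rag GTPases, 8 of 11 were positive. Wdr24, whose control mean of 4.505 lay below background, differed by 0.30 ± 0.11 and Itfg2, below background, by 0.28 ± 0.07. Of the 7 amino acid sensors 4 were positive and 3 negative, with a median of 0.17. The arginine sensor gene Castor1, whose control mean of 4.33 lay below background, differed by 0.575 ± 0.20. Sesn3, of the sestrin family, differed by -0.21 ± 0.07. Of the 12 genes of autophagy, lysosome and lipid targets, 10 were positive, with Atg13, an autophagy initiator held in check by mTORC1, at 0.29 ± 0.09 and the lysosomal transcription factor gene Tfeb, below background, at 0.115 ± 0.04. After quantile normalization the list medians were -0.03 for the Rag GTPases and Ragulator and 0.055 for GATOR and KICSTOR. They were 0.14 for the amino acid sensors and 0.08 for autophagy, lysosome and lipid targets. No gene in these lists passed the adjusted threshold without a block.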

How the data were processed

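Per the file headers, the authors summarised MoGene 2.1 ST arrays by RMA at gene level with NetAffx release 36, and deposited log2 signals with 2 decimals. The Transcriptome Analysis Console is named in the submitters' processing notes. The authors' deposited table also holds group averages, SDs, p-values, FDR values and a signed fold (control over treated). Which test they ran was not stated, and their averages are not plain means.

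From the log2 signals, differences (BPS minus control, no covariates) and array-series differences (group as a term) were fitted over all 34472 probe sets in limma 3.58.1 (lmFit, eBayes; R 4.3.3), two-sided, with Benjamini-Hochberg adjustment and a threshold of 0.05. The fit was tested on simulated arrays with independent noise, which held neither the array series nor the array-wide shift of these data, so that test covers neither. Tables and plots used Python 3.11.15, pandas 2.3.3 and matplotlib 3.10.9. Array medians ran from 4.15 to 4.21 and correlations between arrays from 0.941 to 0.982. Of all probe sets 29.4% lay above background, and the number of arrays limits the precision. Alternatives were quantile normalization, median centring, filters, a replicate block, an array-series block and leaving out 1 array. The series block after quantile normalization was added after seeing the data.

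Replicate numbers in the titles run from 1 to 4 in each group. Arrays with the same number deviated together from their group's mean, and the deviations correlated at 0.519, 0.383, 0.173 and 0.362. Each was over 0.1, and by that rule the numbers were treated as pairing the arrays, although the labels do not say what they share. Arrays with the same number also lie in the same array series, and series means were not taken out. The check therefore cannot tell a pairing by number from the difference between the series.

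The members and lists were chosen with earlier results of these data known. Named were all members, the 2 genes per pathway list with the smallest unadjusted p, Rictor, Mapkap1, Tbc1d7, Rhebl1, Rps6kb2, Eif4ebp2, Rps6, Akt1, the 5 closest to Rptor by either likeness (predicted and RIKEN symbols left out), and Zp3, Gdf9 and Ddx4. Castor1 and Bmt2 carry older symbols in the file and were matched through RefSeq.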

Additional observations from a re-analysis of the deposited data

Results flagged for a closer look

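Atg13 was the 1 case among 60 sets of 4 arrays (30 genes in 2 groups) in which an array stood far from the others of its group. Its signal in control arrays 1 to 4 was 4.49, 4.70, 4.67 and 4.70, and the gap below control array 1 made up most of the range, more than Dixon's limit for 4 samples allows. Chance marks about 5% of such sets. The BPS minus control difference of Atg13 was 0.29, and 0.24 without control array 1.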

How the results depend on the processing

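Of 652 recomputed values 591 kept their direction and side of the threshold, or, where untested, moved by less than the spread. The count of probe sets past the threshold for BPS against control was 3 in limma. It was 0 after quantile normalization (3753 at an unadjusted p under 0.05), 1 after median centring, 685 with the replicate block, 1195 with the array-series block and 611 with that block after quantile normalization. It was 0 in the authors' FDR and 0 to 3 when 1 array was left out, and it was 0 whenever a control array or BPS array 4 was the one removed. The array-series count of 1899 was 979 after quantile normalization, 24 without the group term and 714 to 1716 when 1 array was left out, moving by over 1.5-fold for each array but control arrays 2 and 3. Pathway calls, 0 in limma, were 2 with the replicate block, 5 with the array-series block and 1 with that block after quantile normalization. Among the BPS against control results recomputed with it, the replicate block changed no other call. It was not run for the array-series comparison, since each replicate number lies within 1 series. The Rptor difference was 0.45 after quantile normalization, with or without the array-series block. Signs turned after quantile normalization for the array-series differences of Rptor (-0.13) and Mtor (-0.18, and -0.015 after median centring) and for the BPS difference of Mapkap1 (-0.12, also with the array-series block). When 1 array was left out, signs turned for the array-series differences of Mtor (-0.114 to 0.133) and Rheb (-0.105 to 0.04) and the BPS differences of Rps6 (-0.0725 to 0.0458) and Eif4ebp2 (-0.10 to 0.04). The Mtor, Tsc1, Rheb and Rps6kb1 differences between BPS and control turned sign under at least 1 alternative. The cause was not tested. Signal near background limits Akt1s1, Eif4ebp1, Bmt2, Castor1, Prr5l and Wdr24.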

Other observations

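Between the array series, 6 of the 83 pathway genes outside the 10 passed in limma, all higher in letter-named arrays. This share, 7.23%, is near the background of 5.51% of all probe sets, and 4.56% as higher, so it is no result about the pathway. In a fit of the 10138 probe sets above background alone, 1718 passed, a larger share than over all probe sets. Prkaa1, a catalytic subunit of AMPK, had means of 7.20 ± 0.14 in letter-named and 6.53 ± 0.16 in number-named arrays (SD, n = 4 each), a difference of 0.67 ± 0.10 (SE, adjusted p = 0.0152 by limma). Prkag1, a regulatory subunit of AMPK, had 7.59 ± 0.05 in letter-named and 6.90 ± 0.26 in number-named arrays (adjusted p = 0.0214 by limma). The others were Bmt2, Mios, Eif4a1 and Larp1, of which Bmt2, Mios and Larp1 also passed for BPS against control with the series as a block. The signal of Bmt2 lay at the background level. After quantile normalization 4 passed. These were Prkaa1, Prkag1 and Bmt2, higher in letter-named arrays, and Eef2k, a kinase of elongation factor 2, lower by -0.57. These genes were chosen after their values were seen.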
